A study of Mus musculus with 12 samples.

Results

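The genes described here are those whose level differed from control in the same direction whether mouse BV2 microglia had met resting neutrophils or neutrophils driven to release extracellular traps. BV2 is an immortalised mouse line of microglia, the macrophages that live in nervous tissue. A gene was counted as shared when its FPKM (fragments scaled for transcript length and library size) in all 8 co-culture libraries lay above, or in all 8 lay below, all 4 control libraries. Of the 27487 genes listed, 2035 met this rule, 959 above control (3.49%) and 1076 below (3.91%). The genes were chosen by these FPKM values of the co-cultures against control, which are therefore given below as a description with no test.

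The 12 libraries of polyadenylated RNA fall into 3 groups of 4. The CTR group was BV2 cells grown alone. In the Neu group BV2 cells were grown with primary mouse neutrophils, and in the Neu+NETS group with primary mouse neutrophils treated with phorbol 12-myristate 13-acetate (PMA), which turns on protein kinase C and drives neutrophils to cast out webs of chromatin and granule proteins. Both co-cultures therefore share the neutrophils, and they differ in PMA and traps together, which cannot be told apart. The labels name no strain, age, dose, duration, barrier between the cells or removal of PMA, and nothing says that the 4 libraries of a group came from separate cultures, so p-values cover only library-to-library spread, which may be technical.

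Libraries held 53512190 to 68316549 estimated counts, and 16387 genes passed the filter on low counts, among them 2008 members. Those were 945 of the higher members, or 5.77% of tested genes, and 1063 of the lower members, or 6.49%. Of 29 listed markers of mature neutrophils, 16 were present in the table and 10 of these stayed under 1 FPKM in every library, S100a8 among them. Others were highest in Neu: Il1r2 stood at 0.217 to 0.361 FPKM in CTR, 7.59 to 8.28 in Neu and at most 0.0687 in Neu+NETS, and Trem1 at 8.53 to 9.15, 13.6 to 14.4 and 1.94 to 2.28. Lcn2 and Mmp9 had the same order at lower levels. Csf3r went the other way, at 4.816 to 5.325 FPKM in CTR, 4.069 to 4.236 in Neu and 0.4671 to 0.859 in Neu+NETS. The summed level of the markers was 18.5 to 20.6 FPKM in CTR, 33.1 to 34.5 in Neu and 4.12 to 4.68 in Neu+NETS, and the myeloperoxidase gene Mpo stood at 0 in 10 of 12 libraries and at most 0.0385 FPKM in the others. The part of these markers in the results was not tested. The 14 defining markers of microglia and macrophages summed to 1327 to 1401, 1376 to 1427 and 866 to 878 FPKM in the 3 groups. The labels also name retina, yet 9 of the 13 retinal neuron and glia markers present stayed under 1 FPKM in every library. In such bulk RNA, fewer cells of a type and less RNA per cell cannot be told apart.

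Microglia respond to their surroundings by trading a surveying state, which depends on lineage factors such as PU.1 and on receptors such as P2RY12 and TREM2, for programmes of cytokine release, glycolysis or antiviral defence. Low oxygen stabilises hypoxia-inducible factor, which binds promoters at a short core sequence and switches on glucose uptake, glycolysis and mitophagy genes. Type I interferon acts through promoter elements of its own, and shortage of amino acids or misfolded protein acts through the transcription factor ATF4. Neutrophils and their traps are known as strong triggers of macrophage inflammation.

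Effects below are log2 fold changes ± SE from one edgeR fit over all 12 libraries, and the shared effect is the mean of the Neu and Neu+NETS effects against CTR. Among higher members the median shared effect was 0.48, and 156 of 945 (16.5%) reached a 2-fold difference. Among lower members the median was -0.44, and 127 of 1063 (11.9%) did. A 2-fold shared effect was found in 7.30% of all tested genes. Of those 156 and 127 members, 82 and 52 were at least 2-fold from CTR in each co-culture. Protein-coding genes made up 91.6% of higher and 95.6% of lower members, beside 73.7% of all tested genes, and long non-coding RNAs 5.93% and 2.54%, beside 12.6%. Members also had higher levels, with a median CTR mean of 5.76 FPKM in higher and 12.7 in lower members, beside 3.92 in all tested genes. The part of level in these shares was not tested. Transcription factors numbered 60 and 74 (6.35% and 6.96%, beside 5.96%).

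**Figure D1:**
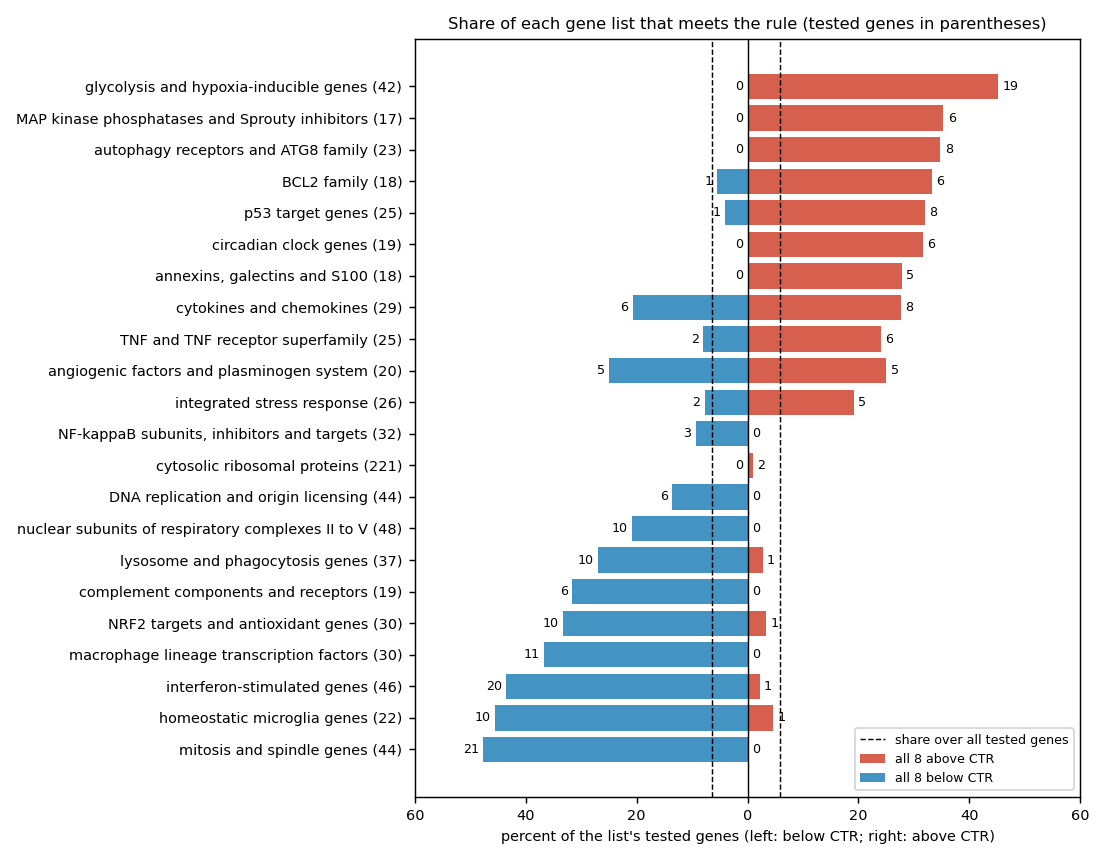
Percent of each gene list's tested genes that met the rule, to the right for genes with all 8 co-culture values above CTR and to the left for all 8 below, with the number of genes at each bar's end. Dashed lines mark the share over all 16387 tested genes (5.77% above, 6.49% below). Glycolysis and hypoxia-inducible genes held 19 higher members and mitosis genes 21 lower members.

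Glycolysis and hypoxia-inducible genes formed the list with the highest share of higher members. Of 42 tested genes, 19 (45.2%) lay above CTR in all 8 co-culture libraries and 0 lay below, with a list median of 0.46 beside -0.02 over all tested genes. By group the list median was 0.93 in Neu and 0.10 in Neu+NETS. Ero1a, an oxidase of the endoplasmic reticulum, stood at 20.7, 18.98, 18.00 and 20.7 FPKM in the CTR libraries, 265, 264, 249.99 and 264 in the Neu libraries and 32.6, 31.9, 32.7 and 32.02 in the Neu+NETS libraries. Every Neu library was far above every Neu+NETS library, which in turn stood clear of CTR. Its level was thus 13.8-fold that of CTR in Neu and 1.59-fold in Neu+NETS. Bnip3, a receptor that marks mitochondria for removal, stood at 47.5, 46.4, 44.4 and 46.8 FPKM in the CTR libraries, 321, 316, 320.1 and 295 in the Neu libraries and 74.1, 68.6, 71.1 and 65.3 in the Neu+NETS libraries. The 3 groups were again ordered CTR, Neu+NETS, Neu, with no overlap, at 7.03-fold and 1.46-fold of CTR. The glucose transporter gene Slc2a1 stood at 56.2, 57.98, 55.4 and 56.5 FPKM in the CTR libraries, 250.3, 251, 251 and 274 in the Neu libraries and 102, 105, 99.2 and 106 in the Neu+NETS libraries. It was 4.72-fold and 1.76-fold of CTR. Vegfa, the main growth factor for blood vessels, stood at 9.53, 9.01, 9.79 and 9.96 FPKM in the CTR libraries, 36.9, 34.7, 37.2 and 37.6 in the Neu libraries and 14.5, 12.7, 13.4 and 12.7 in the Neu+NETS libraries, which is 3.97-fold and 1.35-fold of CTR.

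Other genes of this kind were likewise highest in Neu. Hilpda, which holds lipid in droplets, averaged 18.5 ± 2.59, 104 ± 2.39 and 26.5 ± 1.54 FPKM (mean ± SD, n = 4, in the order CTR, Neu, Neu+NETS). The mitophagy receptor Bnip3l averaged 26.4 ± 1.02, 63.5 ± 1.45 and 31.9 ± 0.921 FPKM, the glycolytic enzyme gene Pgk1 749.9 ± 21.2, 1236 ± 7.94 and 864 ± 13.9 and the hypoxia marker Ndrg1 13.1 ± 0.241, 143 ± 4.93 and 15.9 ± 0.397. Between the co-cultures, 37 of all 42 tested genes of the list were called lower in Neu+NETS than in Neu, and 18 of the 19 members were. The exception was Slc16a3, which encodes the lactate exporter MCT4, at 71.4, 76.00, 71.5 and 71.02 FPKM in the CTR libraries, 95.7, 96.6, 98.3 and 106 in the Neu libraries and 110.2, 112, 107 and 106 in the Neu+NETS libraries. It was 1.42-fold and 1.45-fold of CTR, and the co-cultures differed by 0.03 ± 0.034 (log2, 95% interval -0.04 to 0.10, edgeR adjusted p = 0.504). On FPKM with no further scaling, limma called that difference, at 0.13 (adjusted p = 0.00511).

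The 250 bases before the start of 3 of these genes are shown because they hold ACGTG, with matches on either strand in capitals. ACGTG is one form of the core that hypoxia-inducible factor recognises. Sequences are from RefSeq, build GRCm38.p6, 5′ to 3′ on the gene's strand, and the genes were picked for holding the match.
Bnip3, chr7:138909507-138909756 (minus strand): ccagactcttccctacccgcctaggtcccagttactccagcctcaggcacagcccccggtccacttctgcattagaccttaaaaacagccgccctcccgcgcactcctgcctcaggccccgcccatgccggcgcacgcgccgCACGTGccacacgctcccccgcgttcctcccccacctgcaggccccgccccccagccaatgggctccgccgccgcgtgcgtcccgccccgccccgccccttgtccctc
Ero1a, chr14:45318573-45318822 (minus strand): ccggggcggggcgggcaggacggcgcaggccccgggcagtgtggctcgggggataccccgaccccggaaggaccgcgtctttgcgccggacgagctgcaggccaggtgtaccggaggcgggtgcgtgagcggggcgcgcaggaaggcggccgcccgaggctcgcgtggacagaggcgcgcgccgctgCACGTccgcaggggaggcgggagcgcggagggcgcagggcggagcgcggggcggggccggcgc
Slc2a1, chr4:119108495-119108744 (plus strand): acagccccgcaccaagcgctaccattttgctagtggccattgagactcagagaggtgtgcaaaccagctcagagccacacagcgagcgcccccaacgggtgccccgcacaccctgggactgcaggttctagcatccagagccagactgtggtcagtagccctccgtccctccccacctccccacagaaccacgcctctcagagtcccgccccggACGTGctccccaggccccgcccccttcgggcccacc
The letters ACGTG occurred in 11 of 23 windows (47.8%) of the 17 list members with an entry, in 24.7% of windows of all higher members, in 17.8% of those of lower members and in 21.5% of 13181 windows of tested genes. In Bnip3 the match is the palindrome CACGTG, which is also an E-box and counts on both strands. The other form of the core, GCGTG, occurred in 49.9% of windows of higher members, 44.7% of those of lower members and 43.3% of those of tested genes. It was not counted for the list. A match describes the sequence and is no evidence of binding.

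Secreted signals split by gene. Of 29 tested cytokines and chemokines, 8 lay above and 6 below CTR. The inflammatory chemokine gene Ccl3, at chr11:83538670-83540181 (GRCm39), stood at 254, 265, 245 and 243 FPKM in the CTR libraries, 646, 660.5, 648 and 624 in the Neu libraries and 935, 986, 999 and 937 in the Neu+NETS libraries. All 4 Neu+NETS values exceeded all Neu values, and the fit gave 2.66-fold and 3.702-fold of CTR. Its neighbour Ccl4, at chr11:83553410-83555509, stood at 52.2, 62.01, 51.8 and 50.6 FPKM in the CTR libraries, 139, 141, 139 and 138 in the Neu libraries and 138, 144, 144 and 121 in the Neu+NETS libraries. Here the 2 co-cultures overlapped, at 2.67-fold and 2.43-fold, and their difference of -0.14 ± 0.064 (95% interval -0.27 to -0.00146) was not called (adjusted p = 0.0734). Without CTR replicate 2, the highest CTR library, it was called (adjusted p = 0.025). Ccl6, in the same stretch of chromosome 11, averaged 17.3 ± 1.15, 32.3 ± 0.917 and 23.2 ± 1.19 FPKM.

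Monocyte-attracting chemokines lay on the other side. Ccl2, at chr11:81926397-81928279, stood at 117, 121, 112 and 97.7 FPKM in the CTR libraries, 34.5, 32.4, 33.1 and 37.5 in the Neu libraries and 38.2, 42.8, 43.3 and 40.9 in the Neu+NETS libraries. It was 3.13-fold and 2.81-fold below CTR, with Neu slightly below Neu+NETS. The co-cultures differed by 0.16 ± 0.063 (adjusted p = 0.0373), a call lost without Neu replicate 1, 2 or 3 or Neu+NETS replicate 2 or 3 (adjusted p 0.0612, 0.109, 0.087, 0.0842 and 0.105). Ccl7, which shares the receptor CCR2 with Ccl2, stood at 6.16, 5.79, 6.02 and 5.02 FPKM in the CTR libraries, 1.39, 1.74, 0.982 and 1.58 in the Neu libraries and 0.447, 0.551, 0.163 and 0.619 in the Neu+NETS libraries. The 3 groups did not overlap, and the gene was 3.87-fold and 13.2-fold below CTR. The next tested Ccl gene of that stretch, Ccl12, averaged 1.27 ± 0.338, 0.3997 ± 0.189 and 0.189 ± 0.224 FPKM, a low level. Ccl2, Ccl7 and Ccl12 lie together on chromosome 11 and Ccl6, Ccl3 and Ccl4 lie together further along it, with Ccl5 and Ccl9, which did not meet the rule, between them. Chemokine genes of a cluster resemble each other, so reads may be shared among them.

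Other secreted factors above CTR were members of the interleukin-6 and tumour necrosis factor families. Oncostatin M (Osm) stood at 11.1, 11.1, 11.8 and 11.003 FPKM in the CTR libraries, 15.01, 15.2, 16.4 and 17.2 in the Neu libraries and 21.4, 21.5, 20.2 and 19.9 in the Neu+NETS libraries, highest in Neu+NETS. Lif, the gene next to it on chromosome 11, averaged 0.582 ± 0.131, 2.79 ± 0.322 and 1.53 ± 0.341 FPKM, highest in Neu. Tnf stood at 23.4, 24.98, 20.8 and 23.4 FPKM in the CTR libraries, 32.8, 31.3, 31.4 and 34.1 in the Neu libraries and 28.8, 31.2, 28.6 and 30.4 in the Neu+NETS libraries. Its ranges in the co-cultures lay close together, at 1.45-fold and 1.24-fold of CTR. The interferon-induced chemokine gene Cxcl10 lay below CTR, at 9.098 ± 0.658, 6.596 ± 0.396 and 4.94 ± 0.381 FPKM.

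Of 25 tested genes of the TNF and TNF receptor superfamily, 6 lay above and 2 below CTR. Tnfrsf9 encodes the costimulatory receptor 4-1BB, and it stood at 6.18, 5.93, 6.61 and 6.81 FPKM in the CTR libraries, 99.2, 103, 96.97 and 102 in the Neu libraries and 8.26, 6.98, 7.396 and 8.87 in the Neu+NETS libraries. The Neu values were 16.3-fold those of CTR, while the Neu+NETS values, 1.19-fold, only just cleared the CTR range. The gene of its ligand, Tnfsf9, averaged 28.8 ± 1.53, 58.3 ± 3.36 and 32.8 ± 1.79 FPKM. A run of 3 more receptor genes stand side by side on chromosome 7 (GRCm39): Tnfrsf26 at chr7:143161396-143182459, Tnfrsf22 at chr7:143188543-143203398 and Tnfrsf23 at chr7:143219546-143239609. Tnfrsf22 and Tnfrsf23 are decoy receptors for the death ligand TRAIL. Their averages were 17.99 ± 0.4500, 24.1 ± 0.0459 and 39.8 ± 0.386 FPKM for Tnfrsf26, 5.75 ± 0.642, 7.64 ± 0.286 and 11.1 ± 0.775 for Tnfrsf22 and 8.305 ± 0.522, 19.8 ± 0.628 and 16.7 ± 0.329 for Tnfrsf23. Tnfrsf26 and Tnfrsf22 were called higher in Neu+NETS than in Neu, by 0.62 ± 0.028 and 0.43 ± 0.07, and Tnfrsf23 lower, at -0.35 ± 0.041 (adjusted p 4.0e-12, 4.3e-05 and 1.1e-06). The 3 genes are close relatives, so reads may be shared.

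The plasminogen system, which cuts fibrin and matrix, was represented by an activator and its receptor. The urokinase gene Plau stood at 130.3, 131, 132 and 123 FPKM in the CTR libraries, 224, 226, 225 and 229 in the Neu libraries and 252, 264, 255 and 257 in the Neu+NETS libraries. Its co-culture levels were 1.82-fold and 1.93-fold of CTR and differed by 0.08 ± 0.026 (adjusted p = 0.0114). The urokinase receptor gene Plaur averaged 25.2 ± 0.583, 52.4 ± 2.27 and 43.7 ± 1.35 FPKM. Of 20 tested angiogenic and plasminogen genes, 5 lay above and 5 below CTR. Among annexins, galectins and S100 genes 5 of 18 lay above CTR and 0 below, with Anxa2 at 58.6 ± 1.74, 200.2 ± 2.89 and 71.7 ± 1.92 FPKM and Anxa5 at 207 ± 5.32, 344 ± 8.93 and 304 ± 8.49. Both encode calcium-dependent membrane-binding proteins. Bcar1, a scaffold of adhesion signalling, had the largest shared effect of the named higher members, 3.23 ± 0.14, at 0.356 ± 0.08503, 7.39 ± 0.933 and 1.53 ± 0.138 FPKM.

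**Figure D2:**
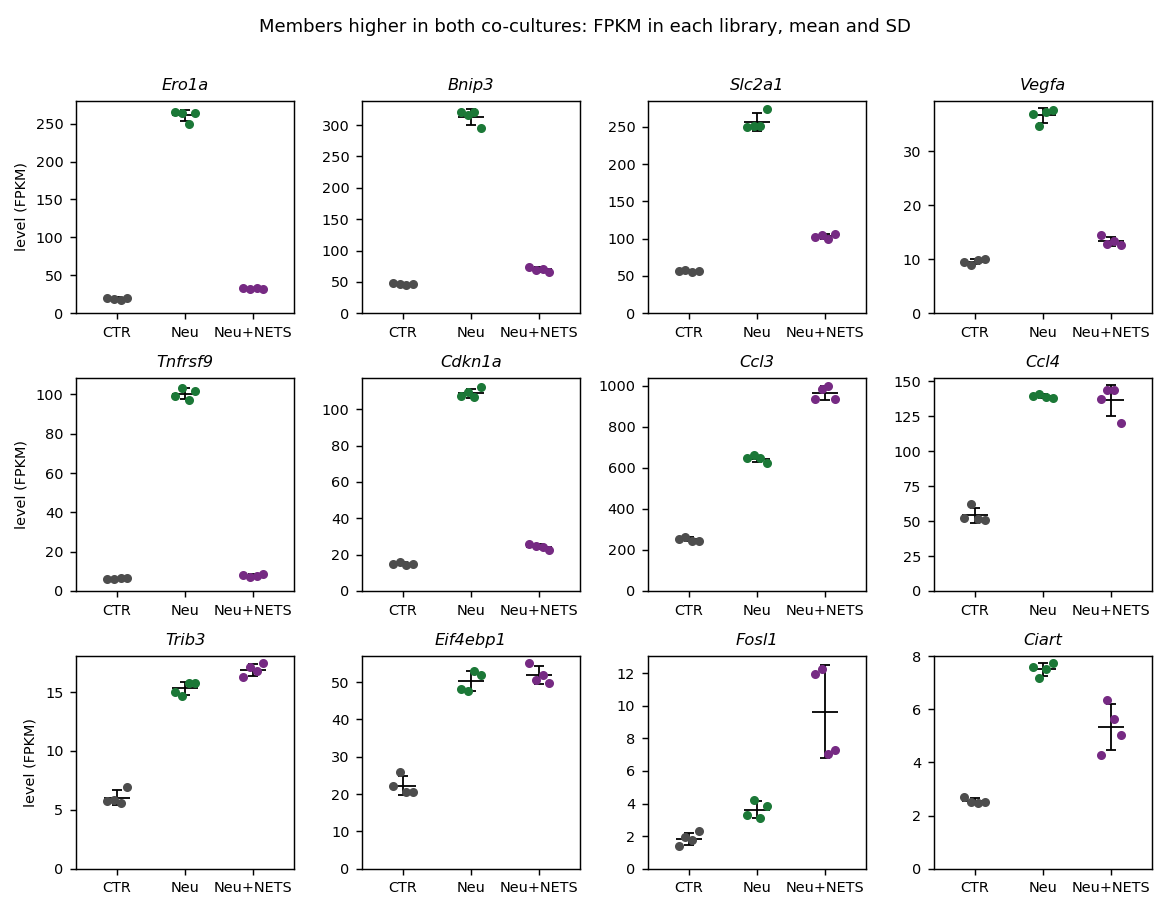
FPKM of 12 genes that lay above CTR in both co-cultures, with each point a library, horizontal bars the mean and whiskers the SD of 4 libraries. Hypoxia-linked genes such as Ero1a peak in Neu, Ccl3 and Fosl1 peak in Neu+NETS, and Ccl4 and Eif4ebp1 overlap between the co-cultures.

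Early-response genes and their brakes came next. MAP kinase phosphatases and Sprouty inhibitors, which switch off growth-factor signalling, held 6 higher members among 17 tested and 0 lower ones. Of the 6, 2 were called higher and 2 lower in Neu+NETS than in Neu, beside 5 and 8 of all 17 tested. The 2 called higher were Dusp5 and Dusp14. Dusp5 averaged 6.76 ± 0.6897, 12.3 ± 0.984 and 15.5 ± 1.13 FPKM and Dusp14 2.37 ± 0.294, 3.86 ± 0.211 and 6.19 ± 0.484, both highest in Neu+NETS. Of 27 tested immediate early genes, 5 lay above and 2 below CTR. Fosl1, which encodes the AP-1 subunit FRA1, stood at 1.41, 1.92, 1.74 and 2.31 FPKM in the CTR libraries, 3.303, 4.21, 3.11 and 3.87 in the Neu libraries and 11.96, 12.2, 7.04 and 7.26 in the Neu+NETS libraries. The Neu+NETS libraries formed a higher pair (replicates 1 and 2) and a lower pair (replicates 3 and 4), all above Neu. Its effects were 2.04-fold and 5.03-fold of CTR, and the co-cultures differed by 1.302 ± 0.19 (adjusted p = 1.0e-05). Fos, the founding AP-1 subunit, was on the other side, at 5.42, 5.16, 6.46 and 6.22 FPKM in the CTR libraries, 2.26, 2.79, 2.79 and 3.104 in the Neu libraries and 2.59, 2.79, 2.64 and 3.595 in the Neu+NETS libraries. Neu and Neu+NETS overlapped at 2.04-fold and 2.07-fold below CTR, and their difference was -0.02 ± 0.12 (95% interval -0.28 to 0.24, adjusted p = 0.901). Ier3, an early gene that modulates survival, averaged 30.6 ± 1.76, 165 ± 17.6 and 55.8 ± 2.32 FPKM.

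Genes of the integrated stress response, the ATF4 pathway, gave 5 higher and 2 lower members among 26 tested. Trib3, a pseudokinase and ATF4 target, stood at 5.75, 5.82, 5.56 and 6.95 FPKM in the CTR libraries, 15.03, 14.7, 15.8 and 15.7 in the Neu libraries and 16.3, 17.1, 16.8 and 17.4 in the Neu+NETS libraries. The fold was 2.64 in Neu and 2.71 in Neu+NETS. After scaling of libraries by TMM the co-cultures differed by 0.04 ± 0.063 (adjusted p = 0.644), although the FPKM values of the 2 groups did not overlap and limma on FPKM called 0.13 (adjusted p = 0.0373). Eif4ebp1 encodes 4E-BP1, a brake on cap-dependent translation, and stood at 22.2, 25.9, 20.4 and 20.5 FPKM in the CTR libraries, 48.2, 47.6, 53.04 and 51.8 in the Neu libraries and 55.2, 50.6, 52.02 and 49.8 in the Neu+NETS libraries. The co-cultures overlapped, at 2.34-fold and 2.25-fold of CTR, with a difference of -0.06 ± 0.065 (95% interval -0.19 to 0.08, adjusted p = 0.481). Ddit3 (CHOP) averaged 5.56 ± 0.272, 7.56 ± 0.463 and 9.65 ± 0.762 FPKM, Ppp1r15a (GADD34) 6.61 ± 0.524, 12.3 ± 0.837 and 10.05 ± 0.733 and Sesn2 4.07 ± 0.185, 11.4 ± 0.687 and 6.83 ± 0.353. Asns, the asparagine synthetase gene and a standard ATF4 target, was no member: it averaged 37.8 ± 1.14, 19.2 ± 1.100 and 75.8 ± 1.31 FPKM, below CTR in Neu and above it in Neu+NETS. Mitochondrial folate enzyme gene Aldh1l2 was a member, at 1.54 ± 0.0403, 10.1 ± 0.614 and 5.53 ± 0.268 FPKM.

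Regulators of the cell cycle and of cell death split by gene. Of 26 tested G1/S regulators and E2F genes, 5 lay above and 4 below CTR, the CDK inhibitor gene Cdkn2c among the lower ones. Of 25 tested p53 targets, 8 were higher and 1 was lower. Cdkn1a, which encodes the cyclin-dependent kinase inhibitor p21, stood at 15.1, 16.1, 14.2 and 14.8 FPKM in the CTR libraries, 107, 109.5, 107 and 112 in the Neu libraries and 25.7, 24.6, 24.1 and 22.5 in the Neu+NETS libraries. Neu stood far above Neu+NETS, at 7.500-fold and 1.55-fold of CTR. The related inhibitor gene Cdkn1b (p27) averaged 4.13 ± 0.252, 11.2 ± 0.306 and 4.93 ± 0.359 FPKM, and Sertad1, a regulator of CDK4, averaged 5.55 ± 0.269, 18.3 ± 2.06 and 14.2 ± 0.881. Bbc3 (PUMA), a death-promoting BCL2 relative, averaged 5.03 ± 0.497, 8.49 ± 1.02 and 5.77 ± 0.257 FPKM, and 6 of 18 BCL2 family genes were higher members, the survival gene Bcl2l2 among them. The death effector gene Bak1 was the family's 1 lower member. The one lower member of the p53 list was Trp53 itself, at 66.2 ± 3.13, 48.9 ± 0.803 and 59.8 ± 1.12 FPKM. Autophagy receptors and ATG8-family genes held 8 higher members of 23 tested and 0 lower, with the receptors Sqstm1 (p62) at 116 ± 0.485, 180.1 ± 4.77 and 165 ± 4.96 FPKM and Nbr1 at 13.5 ± 0.638, 22.4 ± 1.54 and 19.6 ± 0.328, and the kinase gene Ulk2 at 3.28 ± 0.126, 4.704 ± 0.298 and 5.59 ± 0.461.

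Circadian clock genes, whose products form a daily transcription loop, had 6 higher members of 19 tested and 0 lower. All 6 were called lower in Neu+NETS than in Neu, as were 15 of all 19 tested. Ciart, a repressor in the loop, stood at 2.705, 2.51, 2.46 and 2.497 FPKM in the CTR libraries, 7.58, 7.18, 7.51 and 7.73 in the Neu libraries and 4.29, 6.34, 5.65 and 5.04 in the Neu+NETS libraries. The Neu+NETS libraries spread from 4.29 to 6.34 FPKM, between the other groups. Per1 averaged 8.85 ± 0.457, 17.7 ± 1.49 and 13.2 ± 0.273 FPKM, Cry2 2.82 ± 0.258, 5.42 ± 0.125 and 4.103 ± 0.247, Bmal1 1.15 ± 0.0464, 2.37 ± 0.131 and 1.66 ± 0.217, Rora 0.596 ± 0.04603, 2.999 ± 0.236 and 0.812 ± 0.0621 and Nfil3 10.8 ± 0.589, 23.4 ± 0.835 and 13.4 ± 1.18. The labels give no time of harvest, and whether the groups were collected together was not tested. The Ciart promoter is shown for its 3 E-boxes, CACGTG in capitals, the element bound by BMAL1 with CLOCK.
Ciart, chr3:95882229-95882478 (minus strand): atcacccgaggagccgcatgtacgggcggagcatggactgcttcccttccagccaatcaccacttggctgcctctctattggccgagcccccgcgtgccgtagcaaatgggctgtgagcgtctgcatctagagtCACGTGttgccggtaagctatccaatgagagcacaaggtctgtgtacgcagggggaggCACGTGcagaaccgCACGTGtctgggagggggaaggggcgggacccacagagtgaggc
CACGTG occurred in 2 of 6 windows of the 5 clock members with an entry (33.3%), in 6.31% of windows of all higher members and in 8.25% of windows of tested genes.

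Among lower members, mitosis and spindle genes had the highest share. Of 44 tested, 21 (47.7%) lay below CTR in all 8 libraries and 0 above, with a list median of -0.28. By group the list median was -0.39 in Neu and -0.18 in Neu+NETS. Cdc20, an activator of the anaphase-promoting complex, stood at 128, 127, 127 and 128 FPKM in the CTR libraries, 78.3, 75.5, 79.7 and 84.7 in the Neu libraries and 95.1, 103, 99.6 and 97.3 in the Neu+NETS libraries. Neu was lowest, and the effects were 1.54-fold and 1.33-fold below CTR. The proliferation marker Mki67 averaged 61.5 ± 1.59, 39.3 ± 1.304 and 47.6 ± 1.77 FPKM and the kinase gene Aurka 58.00 ± 1.09, 39.2 ± 0.833 and 46.03 ± 1.23. Kif23, a motor of cell division, had the other order, at 14.8 ± 0.862, 12.7 ± 0.492 and 9.94 ± 0.236 FPKM. Of the 21, Neu+NETS exceeded Neu in 14 calls and lay below it in 6, beside 33 and 9 of all 44 tested. DNA replication and origin licensing genes gave 6 lower members of 44. All 6 were called higher in Neu+NETS than in Neu, as were 42 of all 44 tested. Gins1, part of the replicative helicase, averaged 21.1 ± 1.004, 7.44 ± 0.425 and 17.98 ± 1.801 FPKM. Mcm2, another helicase subunit, was no member, at 39.6 ± 0.774, 12.02 ± 0.223 and 40.6 ± 1.65 FPKM, because its Neu+NETS values overlapped CTR. The DNA-damage histone gene H2ax was a member at 112 ± 5.87, 43.01 ± 5.27 and 66.4 ± 2.603 FPKM, the thymidine kinase gene Tk1 at 16.2 ± 0.438, 8.82 ± 0.826 and 10.6 ± 0.218, Grwd1, which acts in ribosome assembly, at 28.5 ± 0.927, 11.9 ± 0.613 and 26.8 ± 0.908, and the oxygenase gene Kdm8 at 5.22 ± 0.306, 1.75 ± 0.153 and 3.93 ± 0.202.

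Interferon-stimulated genes contributed 20 lower members of 46 tested (43.5%) and 1 higher, with a list median of -0.38. By group the list median was -0.13 in Neu and -0.67 in Neu+NETS. Ifit3, whose product binds foreign RNA complexes, stood at 19.7, 17.01, 18.2 and 18.1 FPKM in the CTR libraries, 8.42, 7.87, 7.54 and 7.69 in the Neu libraries and 6.897, 8.48, 8.02 and 6.57 in the Neu+NETS libraries. The co-cultures overlapped at 2.22-fold and 2.52-fold below CTR, and their difference of -0.18 ± 0.083 was not called (adjusted p = 0.0747). It was called without Neu+NETS replicate 2 (adjusted p = 0.0217). Oasl1, a relative of the oligoadenylate synthetases, stood at 128, 136, 133 and 136 FPKM in the CTR libraries, 83.4, 80.8, 82.8 and 94.8 in the Neu libraries and 72.3, 74.6, 71.5 and 72.6 in the Neu+NETS libraries. Neu+NETS was lowest there, at 1.4999-fold and 1.89-fold below CTR. Ifit1 averaged 10.4 ± 0.299, 4.82 ± 0.379 and 6.47 ± 0.288 FPKM, lowest in Neu, and Isg15, a ubiquitin-like modifier, averaged 97.6 ± 9.45, 79.3 ± 3.83 and 60.9 ± 1.76, lowest in Neu+NETS. Ifit3 has a near-identical copy, Ifit3b, so its reads may be split. Of the 20 genes, 14 were called lower and 1 higher in Neu+NETS than in Neu, beside 35 and 3 of all 46 tested.

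The promoters of 3 of these genes are shown for the interferon-stimulated response element, searched on both strands as TTTC, any 2 bases, TTTC and printed in capitals. Build and source are as above.
Ifit3, chr19:34583279-34583528 (plus strand): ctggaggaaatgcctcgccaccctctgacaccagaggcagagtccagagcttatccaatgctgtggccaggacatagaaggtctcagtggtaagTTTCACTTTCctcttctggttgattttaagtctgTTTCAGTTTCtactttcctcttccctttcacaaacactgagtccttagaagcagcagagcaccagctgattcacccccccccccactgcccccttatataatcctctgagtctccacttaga
Ifit1, chr19:34640639-34640888 (plus strand): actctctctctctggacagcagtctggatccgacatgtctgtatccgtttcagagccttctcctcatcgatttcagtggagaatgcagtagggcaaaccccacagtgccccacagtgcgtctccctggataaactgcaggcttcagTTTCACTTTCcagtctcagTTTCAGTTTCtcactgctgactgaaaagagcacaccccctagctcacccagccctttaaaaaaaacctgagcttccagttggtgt
Isg15, chr4:156200819-156201068 (minus strand): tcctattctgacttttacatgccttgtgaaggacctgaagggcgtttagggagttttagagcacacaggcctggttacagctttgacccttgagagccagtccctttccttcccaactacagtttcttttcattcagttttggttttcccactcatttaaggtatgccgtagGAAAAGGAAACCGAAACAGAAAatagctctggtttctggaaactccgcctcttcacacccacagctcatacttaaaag
Ifit3 and Ifit1 hold 2 matches each, and Isg15 holds 3 that overlap on the opposite strand. The element occurred in 9 of 17 windows (52.9%) of the 14 interferon members with an entry, in 4.78% of windows of all lower members, in 2.39% of those of higher members and in 2.74% of windows of tested genes.

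Lineage factors of macrophages came next, with 11 of 30 tested genes below CTR (36.7%) and 0 above. Spi1, which encodes PU.1, stood at 94.5, 95.6, 97.9 and 98.7 FPKM in the CTR libraries, 66.2, 68.5, 72.1 and 72.5 in the Neu libraries and 52.1, 50.3, 49.2 and 49.3 in the Neu+NETS libraries. Each group was separate, at 1.33-fold and 1.99-fold below CTR. Nr1h3 (LXR alpha), a sensor of oxidised sterols, averaged 11.8 ± 0.5101, 5.64 ± 0.774 and 3.37 ± 0.367 FPKM. Of the C/EBP factors, 3 lay below CTR, with Cebpa at 9.98 ± 0.515, 4.301 ± 0.502 and 7.34 ± 0.5499 FPKM, Cebpb at 116 ± 3.502, 91.3 ± 8.53 and 75.1 ± 3.49 and Cebpd at 7.02 ± 0.608, 3.48 ± 0.464 and 3.89 ± 0.317. Cebpa was called higher in Neu+NETS than in Neu (0.67 ± 0.084, adjusted p = 2.3e-06), Cebpb lower (-0.39 ± 0.048, adjusted p = 2.1e-06), and Cebpd was not called (0.05 ± 0.093, adjusted p = 0.644). A relative, Cebpe, which acts in granulocyte maturation, was no member, at 15.3 to 18.1 FPKM in CTR, 18.9 to 22.5 in Neu and 7.16 to 9.21 in Neu+NETS.

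Of 22 tested homeostatic microglia genes, 10 lay below CTR (45.5%) and 1 above. The phagocytic receptor gene Trem2 stood at 41.4, 39.5, 40.1 and 41.8 FPKM in the CTR libraries, 28.6, 29.2, 28.8 and 33.1 in the Neu libraries and 14.4, 14.4, 14.7 and 14.4 in the Neu+NETS libraries, which is 1.31-fold and 2.905-fold below CTR. A pair of surface markers that define resting microglia were low already in CTR: Tmem119 averaged 3.67 ± 0.278, 2.06 ± 0.353 and 1.01 ± 0.0703 FPKM and the nucleotide receptor gene P2ry12 0.658 ± 0.1895, 0.282 ± 0.104 and 0.0199 ± 0.0234. The Fc receptor gene Fcgr1 (CD64) averaged 45.3 ± 1.305, 25.4 ± 0.709 and 13.5 ± 0.743 FPKM, the complement gene C1qc 3.35 ± 0.175, 0.999 ± 0.164 and 0.777 ± 0.142 and the pattern receptor gene Tlr2 57.3 ± 3.22, 35.4 ± 0.828 and 27.5 ± 1.56. Complement held 6 lower members of 19 tested. Csf1r, the receptor on which microglia depend for survival, was no member, at 91.3 ± 2.99, 87.9 ± 2.84 and 26.7 ± 0.994 FPKM, because Neu overlapped CTR. Further members were lowest in Neu+NETS by a wide margin. These were Myo1f, a myosin of leukocytes, at 32.3 ± 1.74, 29.1 ± 0.255 and 4.69 ± 0.384 FPKM, Ly6a (Sca-1) at 34.5 ± 1.34, 27.1 ± 1.31 and 4.84 ± 0.454, Slfn2 at 72.6 ± 1.14, 64.9 ± 1.94 and 15.3 ± 0.6603 and Rab32, a regulator of organelle traffic, at 47.4 ± 1.795, 24.6 ± 1.05 and 9.67 ± 0.632. Csf3r, the G-CSF receptor gene and 1 of the neutrophil markers, averaged 5.15 ± 0.2304, 4.15 ± 0.0721 and 0.691 ± 0.165 FPKM.

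**Figure D3:**
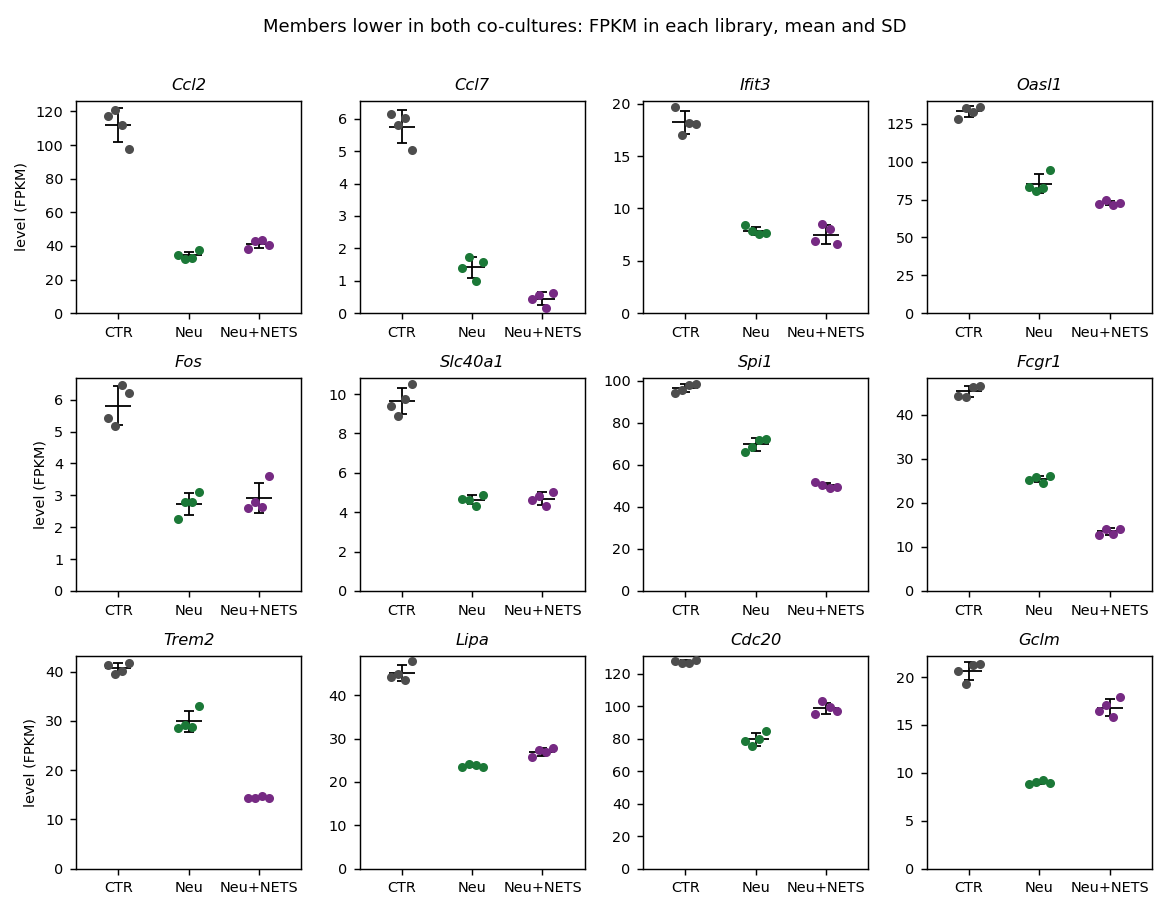
FPKM of 12 genes that lay below CTR in both co-cultures, with each point a library, horizontal bars the mean and whiskers the SD of 4 libraries. Ifit3, Fos and Slc40a1 overlap between Neu and Neu+NETS, Fcgr1 and Trem2 are lowest in Neu+NETS, and Cdc20 and Gclm are lowest in Neu.

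Lysosome and phagocytosis genes gave 10 lower members of 37 tested and 1 higher. Lipa, the lysosomal lipase that frees cholesterol from its esters, stood at 44.3, 44.9, 43.5 and 47.8 FPKM in the CTR libraries, 23.6, 24.2, 23.8 and 23.5 in the Neu libraries and 25.8, 27.3, 26.9 and 27.8 in the Neu+NETS libraries. Both co-cultures held close to the same level, 1.82-fold and 1.73-fold below CTR. The protease gene Ctsd averaged 1200 ± 14.3, 922 ± 24.2 and 696 ± 15.8 FPKM and the endosomal glycoprotein gene Cd68 419 ± 18.2, 378 ± 8.54 and 351 ± 7.12. Slc40a1 encodes ferroportin, the only known exporter of cellular iron, and stood at 9.405, 8.899, 9.75 and 10.5 FPKM in the CTR libraries, 4.68, 4.61, 4.33 and 4.88 in the Neu libraries and 4.600, 4.84, 4.29 and 5.02 in the Neu+NETS libraries. The co-cultures overlapped at 2.003-fold and 2.12-fold below CTR, with a difference of -0.09 ± 0.053 (95% interval -0.20 to 0.03, adjusted p = 0.174).

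Antioxidant genes under NRF2 held 10 lower members of 30 tested and 1 higher. Gclm, a subunit of the enzyme that limits glutathione synthesis, stood at 20.6, 19.3, 21.2 and 21.3 FPKM in the CTR libraries, 8.81, 9.004, 9.22 and 8.93 in the Neu libraries and 16.4, 17.1, 15.9 and 17.9 in the Neu+NETS libraries. Neu was lowest, at 2.201-fold below CTR beside 1.27-fold for Neu+NETS. Its partner subunit gene Gclc averaged 26.9 ± 1.69, 12.3 ± 0.575 and 20.4 ± 0.128 FPKM, the pentose-phosphate enzyme gene Taldo1 142 ± 2.33, 85.8 ± 1.63 and 96.1 ± 1.72 and Keap1, the inhibitor of NRF2, 9.94 ± 0.674, 6.002 ± 0.546 and 7.497 ± 0.163. Nuclear subunits of respiratory complexes II to V gave 10 lower members of 48 and 0 higher, including Cyc1 at 115 ± 2.46, 68.5 ± 4.796 and 105 ± 3.78 FPKM, Sdhb at 56.02 ± 1.07, 38.5 ± 1.44 and 45.6 ± 1.57 and Uqcrc1 at 75.2 ± 0.746, 57.3 ± 3.58 and 63.3 ± 0.524. Mitochondrially encoded genes gave 0 members of 34. NF-kappaB subunits, inhibitors and targets gave 0 higher and 3 lower of 32. Among the 3 were Nfkbid at 13.9 ± 0.663, 4.99 ± 0.406 and 7.96 ± 0.572 FPKM and Bcl3 at 6.41 ± 0.679, 3.86 ± 0.291 and 2.09 ± 0.578. Genes matched by name as cytosolic ribosomal proteins gave 2 higher and 0 lower of 221. That list takes in pseudogenes, among them the higher member Rps12-ps9.

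The rule did not set one co-culture against the other, so this difference was tested. Neu+NETS exceeded Neu at an adjusted p under 0.05 in 29.4% of all tested genes and lay below it in 33.1%, 62.5% in all. Among the 945 higher members, 87 (9.21%) were called higher in Neu+NETS, 540 (57.1%) lower, and 318 were not called. Among the 1063 lower members, 287 (27.0%) were called higher, 443 (41.7%) lower, and 333 were not called. With limma on log2(FPKM + 1) and no further scaling, for genes with a mean of at least 1 FPKM, the split was 146 higher to 387 lower among higher members and 386 to 297 among lower members. The more common sense among lower members was thus the opposite in that fit, which differs from the edgeR fit in model, input, scaling and filter together, and the cause was not tested. Changing the scaling alone, to DESeq2 size factors in edgeR, left it at 297 higher to 426 lower. The share called at all, 66.3% and 68.7%, stood beside 62.5% of all tested genes with edgeR. With limma it was 63.1% and 69.9% beside 77.3%, and with edgeR on counts divided by 4 it was 71.0% and 70.5% beside 74.1%, so members were not called more often than other genes in every fit.

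**Figure D4:**
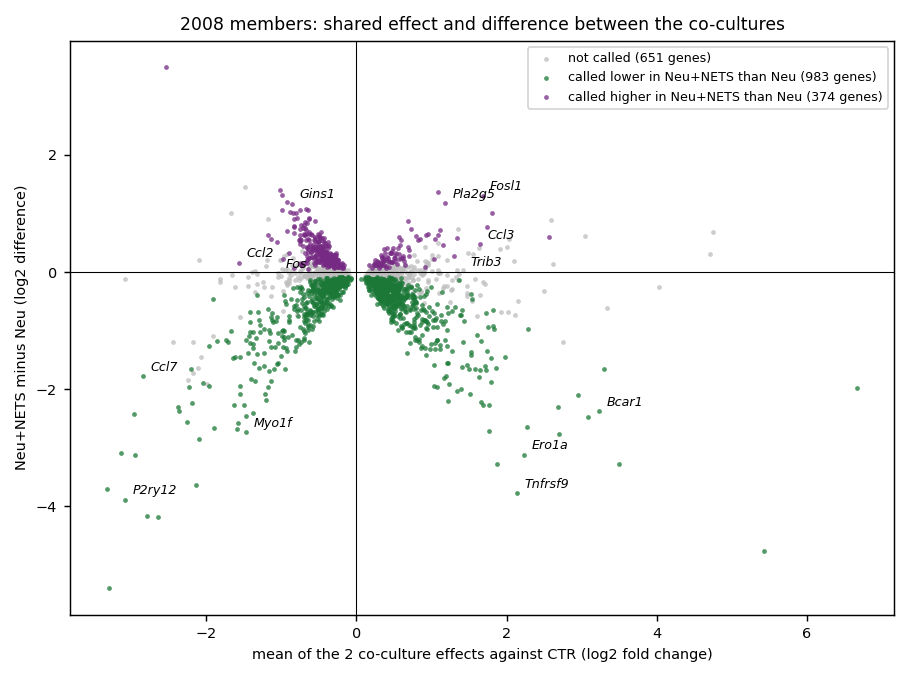
Each point is one of the 2008 tested members, with the shared log2 fold change against CTR on the horizontal axis and the log2 difference between the co-cultures on the vertical axis, coloured by the edgeR call. The wedge shape follows from the rule, under which the FPKM values of both co-cultures lie on one side of CTR; after TMM scaling 3 members have effects of opposite sign. Most called points lie below 0 (983 lower, 374 higher in Neu+NETS).

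Sizes differed from calls. The median absolute difference between co-cultures was 0.25 in higher and 0.23 in lower members, beside 0.48 in all tested genes, and part of that follows from the rule, which keeps both effects on one side of 0. The 95% interval lay within 0.322 of 0 on the log2 scale for 358 higher (37.9%) and 478 lower members (45.0%), beside 16.1% of all tested genes. Intervals of members were also narrower: the median SE of the difference was 0.054 in higher and 0.050 in lower members, beside 0.090 in all tested genes. Among members with a 2-fold shared effect, intervals within 0.322 of 0 were few, 8 of 156 and 4 of 127. The median effect of higher members was 0.58 in Neu and 0.35 in Neu+NETS (log2), and that of lower members -0.40 and -0.42. Effects of at least 2-fold were reached by 218 higher members in Neu and 107 in Neu+NETS, and by 101 and 180 lower members. After scaling by TMM, 2 of the 945 higher members had a Neu+NETS effect below 0 and 1 of the 1063 lower members a Neu effect above 0.

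Some members with a large shared effect stood at nearly one level in both co-cultures. Above CTR these included Nabp1, a binder of single-stranded DNA, at 2.35, 2.68, 2.54 and 2.14 FPKM in the CTR libraries, 6.34, 6.13, 5.74 and 6.03 in the Neu libraries and 6.28, 6.298, 5.97 and 5.91 in the Neu+NETS libraries, Carhsp1 at 7.71 ± 0.751, 16.02 ± 0.837 and 15.9 ± 0.921 FPKM and Pvr, the cell-surface ligand CD155, at 5.71 ± 0.254, 14.8 ± 0.381 and 14.5 ± 0.503, beside Trib3, Eif4ebp1 and Ccl4. The difference was -0.09 ± 0.06 for Nabp1 (95% interval -0.22 to 0.04) and -0.14 ± 0.038 for Pvr (-0.22 to -0.06). Below CTR they included Ccl2, Fos, Slc40a1 and Arhgap19, a brake on the RHOA GTPase, at 29.99 ± 1.2475, 14.7 ± 0.828 and 15.1 ± 0.707 FPKM. Others were far apart. The secreted phospholipase gene Pla2g5 averaged 9.59 ± 0.468, 13.9 ± 0.559 and 33.7 ± 1.84 FPKM and the tubulin gene Tubb6 141 ± 1.15, 162 ± 7.71 and 319 ± 11.7, both highest in Neu+NETS. Kctd11 and Acap1, next to each other on chromosome 11, averaged 0.629 ± 0.112, 7.37 ± 0.823 and 1.27 ± 0.0775 and 3.29 ± 0.257, 27.6 ± 1.24 and 4.55 ± 0.284 FPKM, both highest in Neu. Nos2, the inducible nitric oxide synthase gene, was no member. It averaged 0.183 ± 0.0547, 95.6 ± 6.31 and 0.0179 ± 0.0212 FPKM, so only Neu exceeded CTR.

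The rule has no minimum size, so genes near its edge differ little from those that missed it. Just inside was Smim15, whose highest CTR value was 21.147 FPKM and lowest co-culture value 21.152, and just outside was Cfap97, at 7.1676 and 7.1670. On the lower side Mtmr9 was just inside, with a lowest CTR value of 8.8286 FPKM and a highest co-culture value of 8.8269. Psmb8 was just outside, with both values at 39.306. Requiring the nearest values to be at least 0.322 apart in log2(FPKM + 1) left 107 higher and 117 lower genes.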

How the data were processed

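BV2 microglia were measured by sequencing of polyadenylated RNA in 12 libraries, grouped from the labels as CTR, Neu and Neu+NETS, 4 each. One table of 27487 genes was used, and 0 of its columns were unmatched. Alignment by HISAT2 2.0.4, assembly by StringTie 1.3.4d, edgeR and build GRCm39 are listed in the submitters' processing notes; the sources used here give neither strand setting nor annotation release. The estimated count and FPKM columns were deposited by the authors, per the file headers. The estimated counts are whole numbers, and 33.0% of low values are multiples of 4 (25% by even spread), so 1 fragment may stand for about 4 units and totals may overstate depth. Library pairs within a group differed by 1.96 to 4.79 chi-square per degree of freedom on counts divided by 4, so none was taken as a duplicate.

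The rule was applied to FPKM as deposited. Counts were filtered (filterByExpr), scaled by TMM (factors 0.970 to 1.03) and fitted by edgeR 4.0.16 (glmQLFit, glmQLFTest, R 4.3.3) with a mean per group, and the common biological variation was 12.5%. SE is the log2 fold change over the square root of F. Tests were two-sided, with Benjamini-Hochberg adjustment over 16387 genes, and intervals were 95%. Fits were tested on simulated data. Alternatives were limma 3.58.1 on FPKM, DESeq2 1.42.0, other filters and scalings, and leaving out each library.

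The members, the 74 gene lists and the tests were chosen with earlier results of these data known. The rule for named genes gave 292: the largest shared effects, the smallest and largest differences between co-cultures, up to 4 per list and the rule's edges, with at least 5 FPKM in the highest group, plus 10 fixed genes. The text departs from that rule: 197 of its tested genes are not described with values, and the choice was made after their values were seen, for length and in part because some changed sign under an alternative or held an outlying library; a few are not reported here for other reasons. The genes described are therefore steadier than the rule's set, and stability is also given for all 292. Bmal1, C1qc, Ccl12, Ddit3, Isg15, Kif23, Lif, P2ry12, Pgk1, Rora, Slc16a3, Tmem119 and Tnfsf9, and the genes Cebpe, Il1r2, Lcn2, Mmp9, Mpo, S100a8 and Trem1, stand outside the rule and were chosen after their values were seen. Promoter sequences were matched by symbol (708 higher and 807 lower members) and searched for 15 motifs.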

Additional observations from a re-analysis of the deposited data

Results flagged for a closer look

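In 23 of 324 groups of 4 libraries, over the 108 named genes, 1 library lay far from the other 3 (a gap above Dixon's 95% limit), where chance gives about 1 in 20. Over all 292 genes of the naming rule it was 67 of 876 (7.65%). Over all members the same held in 369 of 6024 groups (6.13%), and in 100 of these the high library was Neu replicate 4. Among named genes Neu replicate 4 was the high one for Kctd11 (8.60 FPKM), Ndrg1 (150.7), Slc2a1 (274), Per1 (19.9), Ppp1r15a (13.5), Tubb6 (174), Tnfsf9 (63.3), Cebpb (104) and Trem2 (33.1). Neu replicate 3 was low for Ero1a (250 FPKM) and Bnip3l (61.3). In CTR, replicate 2 was high for Ccl4 (62.0 FPKM) and Slc16a3 (76.0) and low for Ier3 (28.0), replicate 3 was high for Osm (11.8), replicate 1 was low for Ppp1r15a (5.83), and replicate 4 was low for Plau (123) and Anxa5 (199.6). In Neu+NETS, replicate 1 was low for Bnip3l (30.5 FPKM), replicate 2 high for Ier3 (59.2), replicate 3 high for Trem2 (14.7), and replicate 4 low for Pla2g5 (31.0) and high for Anxa2 (74.5). Without Neu replicate 4 the rule, which can only gain genes when a library is left out, gave 1021 higher and 1246 lower genes.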

How the results depend on the processing

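With one library left out, a step that can only add genes, the rule gave 997 to 1151 higher and 1098 to 1258 lower genes. On TMM-scaled counts it gave 938 and 1104, of which 812 and 941 were among the 959 and 1076. On FPKM rescaled by DESeq2 size factors it gave 1049 and 1007, of which 891 and 932 were among the 959 and 1076. Which direction held more genes thus depended on the scaling. A margin of 0.322 in log2(FPKM + 1) left 107 and 117. Of higher members, 77 to 90 were called higher and 507 to 541 lower in Neu+NETS with a library left out; of lower members, 269 to 293 and 421 to 440. Higher members called higher in Neu+NETS numbered 146, 145 and 144 with limma on log2(FPKM + 1), on log2(FPKM + 0.1) and on all genes, and the cause was not tested. Replicate numbers did not pair the libraries: deviations of the 12 same-numbered pairs correlated at -0.0546 to 0.0426. A replicate block gave 87 higher and 538 lower calls among higher members and 282 and 445 among lower members, called Ccl4 (adjusted p = 0.0271) and Ulk2 (0.0437) and lost Ccl2 (0.059) and Taldo1 (0.0647). The difference between co-cultures turned sign under at least 1 of the alternatives run per gene in 364 of 2008 tested members (18.1%), 25 of them called in the edgeR fit, and in 37 of the 292 genes of the naming rule (12.7%), 4 of them called. It did so in only 5 of the 108 genes named (4.63%), 0 of them called, because genes that turned were among those left out of the text. These 5 were Nabp1 (0.0117), Eif4ebp1 (0.0481), Fos (0.0607), Slc40a1 (0.016) and Arhgap19 (0.0387) with limma on FPKM; Fos also ranged from -0.133 to 0.0332 with a library left out. Shared effects turned sign in 0 of 2008 members, which the rule largely fixes, since members were chosen by their separation from CTR. Calls were lost for Dusp5 without replicate 3 of Neu or Neu+NETS (adjusted p 0.0509 and 0.0539), Ddit3 without Neu replicate 1 or Neu+NETS replicate 3 (0.054 and 0.0555), C1qc without replicate 2 of either (0.0694 and 0.0674) or with limma (0.055), Pvr with limma (0.464), Lipa without any of 6 libraries (up to 0.12) and Taldo1 without any of 7 (up to 0.11).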
